A study of Mus musculus with 2 samples.

Results

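DEAD and DEAH box helicases are RNA helicases named after the amino acid letters of a motif they share. The members described here are the genes whose symbol is Ddx or Dhx followed by a number and at most 1 letter and that have a protein-coding transcript, leaving out Ddx58, Dhx58, Ddx3x and Ddx3y. The rule found 49 genes, 34 named Ddx and 15 named Dhx, of 55536 genes in the deposited gene tables, and these have 270 annotated transcripts. Values came from 2 libraries of ribosomal RNA-depleted total RNA from bone marrow-derived macrophages of mouse strain C57BL/6J. All cells had received Lipid A, the lipopolysaccharide component sensed through Tlr4, at 100 ng/ml for 120 min. The RNA was from the nucleoplasmic fraction, which 1 label field gives only as nucleus. The libraries are biological replicates 1 and 2 of 1 group, with separate biosample entries and the same donor entry, and were made from 1000 ng and 500 ng of RNA, so input and replicate cannot be told apart. Untreated cells, other times and the cytoplasm were not analysed here, so every value below is a level under Lipid A and no test between groups could be made.

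These enzymes use ATP to unwind RNA or to strip proteins from it, and most steps in the life of an RNA involve at least one of them. In the nucleus they rearrange the spliceosome, assemble ribosomal subunits, load export factors onto mRNA and act beside transcription factors. In the cytoplasm others repress, decay or translate mRNA, and some are induced by interferon. Introns that stay in a transcript can hold it in the nucleus or lead to its decay, which makes the transcript types of a gene part of its description in nuclear RNA.

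Depth was 14374739 estimated counts for replicate 1 and 16372797 for replicate 2. Of the 10 macrophage markers, 9 reached 1 TPM (an abundance per transcript length, scaled to the same total in each library) in both libraries. The libraries differed in content. The 10 macrophage markers summed to 1045 TPM in replicate 1 and 2272 TPM in replicate 2, with Lyz2, a macrophage lysozyme, at 403 and 1316 TPM. They did not all move that way. Adgre1 was at 219 and 168 TPM, Mertk at 81.7 and 56.7 TPM, Spi1 at 37.45 and 20.3 TPM, and Cd163 at 0.18 and 0.08 TPM. The other macrophage markers were higher in replicate 2. The 13 stromal markers summed to 92.1 TPM in replicate 1 and 0.90 TPM in replicate 2, with Col3a1, a fibrillar collagen, at 1084 and 0 counts. Mitochondrially encoded RNA took 0.424% and 8.70% of counts. Of the 5 germ cell markers none reached 1 TPM in both and 3 had 0 counts in both. The part of these differences in the values below was not tested, and fewer nuclei of a type cannot be told apart from less RNA per nucleus.

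Helicase RNA was detected broadly. Taking a minimum of 1 TPM in each library as detection, 45 of 49 members passed, beside 40.4% of 22015 nuclear-encoded protein-coding genes. A minimum of 5 TPM in each left 27 members, beside 24.4% of protein-coding genes. Over all 49 members the median TPM was 8.46 (replicate 1) and 5.26 (replicate 2). Among detected genes the members were not high: the median of the 45 was 9.90 and 5.85 TPM, against 10.7 and 7.35 TPM for 8893 detected protein-coding genes. Together the members took 0.404% of counts in replicate 1 (95% Wilson interval 0.401% to 0.408%) and 0.368% in replicate 2 (0.365% to 0.371%). Of the counts of nuclear-encoded protein-coding genes they took 0.557% and 0.549%. A single pair, Ddx5 and Ddx17, held 50.7% and 52.3% of all member counts.

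**Figure D1:**
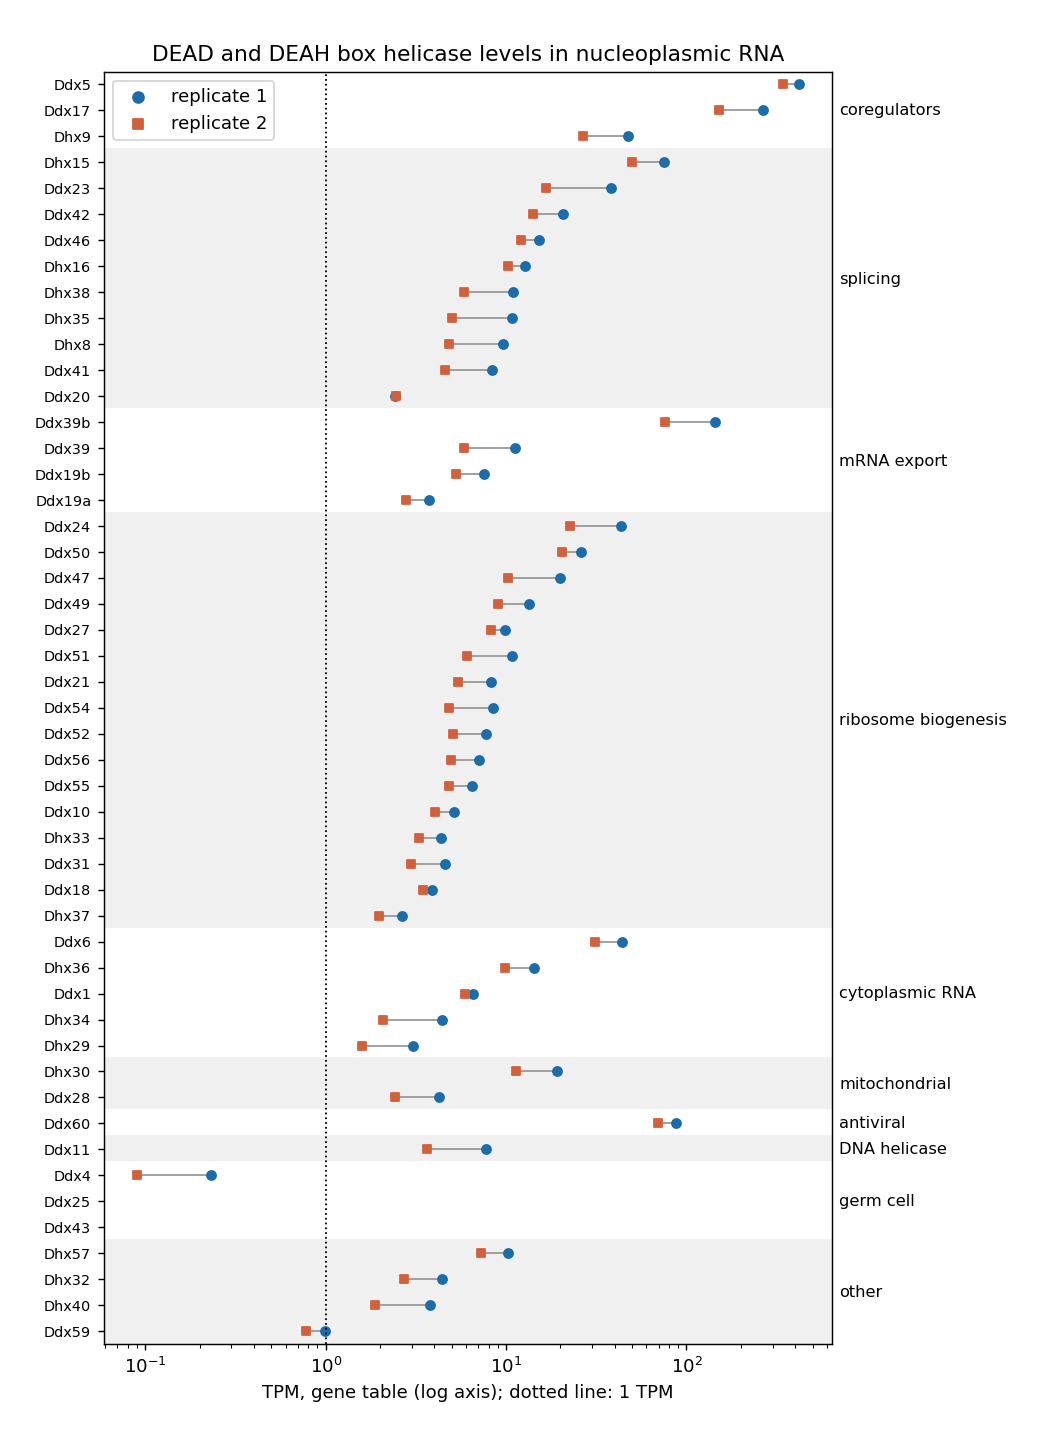
TPM (log axis) of each member in replicate 1 (circles) and replicate 2 (squares), grouped by role. Ddx5 stands highest at 420 and 341 TPM, and 4 members lie below 1 TPM in at least 1 library, of which Ddx25 and Ddx43, at 0 counts, are not drawn as points.

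Ddx5, Ddx17 and Dhx9 work beside transcription factors. Ddx5 (p68), a coregulator that also acts in splicing and microRNA processing, was the most abundant member, at 420 TPM in replicate 1 and 341 TPM in replicate 2 (381 ± 55.7, SD, n = 2), from 16756 and 20451 counts. It lies on chromosome 11 from 106780355 to 106789185, minus strand (build GRCm38/mm10, as are all positions here), and stood at percentile 99.7 of protein-coding genes by mean TPM. Ddx17 (p72), its close paralog, reached 266 and 151 TPM (209 ± 81.6, SD, n = 2) from 12721 and 11070 counts. Ddx17 was thus below Ddx5 in each library. Dhx9, RNA helicase A, which unwinds RNA and RNA-DNA hybrids, reached 47.5 and 26.7 TPM.

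The leading Ddx5 transcript differed from the leading coding one by an intron. Ddx5-208, annotated as a target of nonsense-mediated decay (NMD, the destruction of RNA with an early stop codon), was at 244 TPM in replicate 1 and 163 TPM in replicate 2. The leading protein-coding transcript, Ddx5-201, was at 95.5 and 112 TPM. Ddx5-208 was the higher of the pair in both libraries, and it made up 58.2% and 47.7% of the gene's TPM. The read-based transcript table gave Ddx5-208 a smaller share, 40.3% and 34.4%, still above Ddx5-201 at 13.9% and 18.6%. In nuclear RNA, reads of a precursor not yet spliced and reads of a transcript that holds its intron cannot be told apart in these tables. Inside the span they share, Ddx5-208 differs from Ddx5-201 by holding the whole of intron 11 of 12, which is 1265 bases long (chr11:106782694-106783958, minus strand). The ends of that intron are shown because inside the shared span they are the only boundaries that tell the transcripts apart; intron bases are in capitals and exon bases in lower case, from GENCODE M21 transcripts. The windows lie at chr11:106783919-106783978 and chr11:106782674-106782733.
Ddx5-208 intron 5′ end: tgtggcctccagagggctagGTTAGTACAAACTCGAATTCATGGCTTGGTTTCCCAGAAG
Ddx5-208 intron 3′ end: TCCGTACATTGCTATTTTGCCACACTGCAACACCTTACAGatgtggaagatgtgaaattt

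The same intron carries a microRNA gene. The 67-base hairpin of Mir3064 (chr11:106782693-106782759, minus strand) has 66 bases in the intron and 1 base in the next exon, so it lies across the 3′ splice site. Its letters are shown because the hairpin and the 3′ splice site share bases; the seed, bases 2 to 8 of the mature form, is in capitals, and sequences are from RefSeq (GRCm38.p6).
Mir3064 hairpin: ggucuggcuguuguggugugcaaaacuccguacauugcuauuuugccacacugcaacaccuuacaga
mmu-miR-3064-5p: uCUGGCUGuuguggugugcaaa
mmu-miR-3064-3p: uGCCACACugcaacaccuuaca

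The arms have different seeds. Mir3064 itself was listed with 0 counts in each library, a floor of 3 counts, and so was Gm25994, the other small RNA gene annotated in that intron. The tables thus gave no reads of that interval to these genes.

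Ddx17 had a different make-up. Its 4 transcripts are all annotated as protein coding. Ddx17-202 led with 36.8% and 33.96% of the gene's TPM, followed by Ddx17-204 with 31.0% and 30.6%. No Ddx17 transcript is annotated as intron-retaining, so the type shares cannot show a held intron there.

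Dhx9 was spread over coding, retained-intron and NMD transcripts. Dhx9-201, the coding form, was at 16.5 and 10.03 TPM, and Dhx9-209, of the NMD type, at 10.7 and 4.95 TPM. Dhx9-209 holds intron 17 of 27 of Dhx9-201, a short intron of 142 bases (chr1:153464713-153464854, minus strand), and has an extra exon of 139 bases within intron 6. The intron is short enough to show whole, in capitals, with 10 exon bases on each side (chr1:153464703-153464864).
Dhx9-209 whole intron: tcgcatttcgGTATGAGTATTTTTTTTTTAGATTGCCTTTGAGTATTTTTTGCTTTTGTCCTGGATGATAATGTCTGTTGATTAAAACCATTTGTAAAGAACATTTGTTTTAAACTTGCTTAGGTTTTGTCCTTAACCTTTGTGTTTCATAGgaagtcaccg

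**Figure D2:**
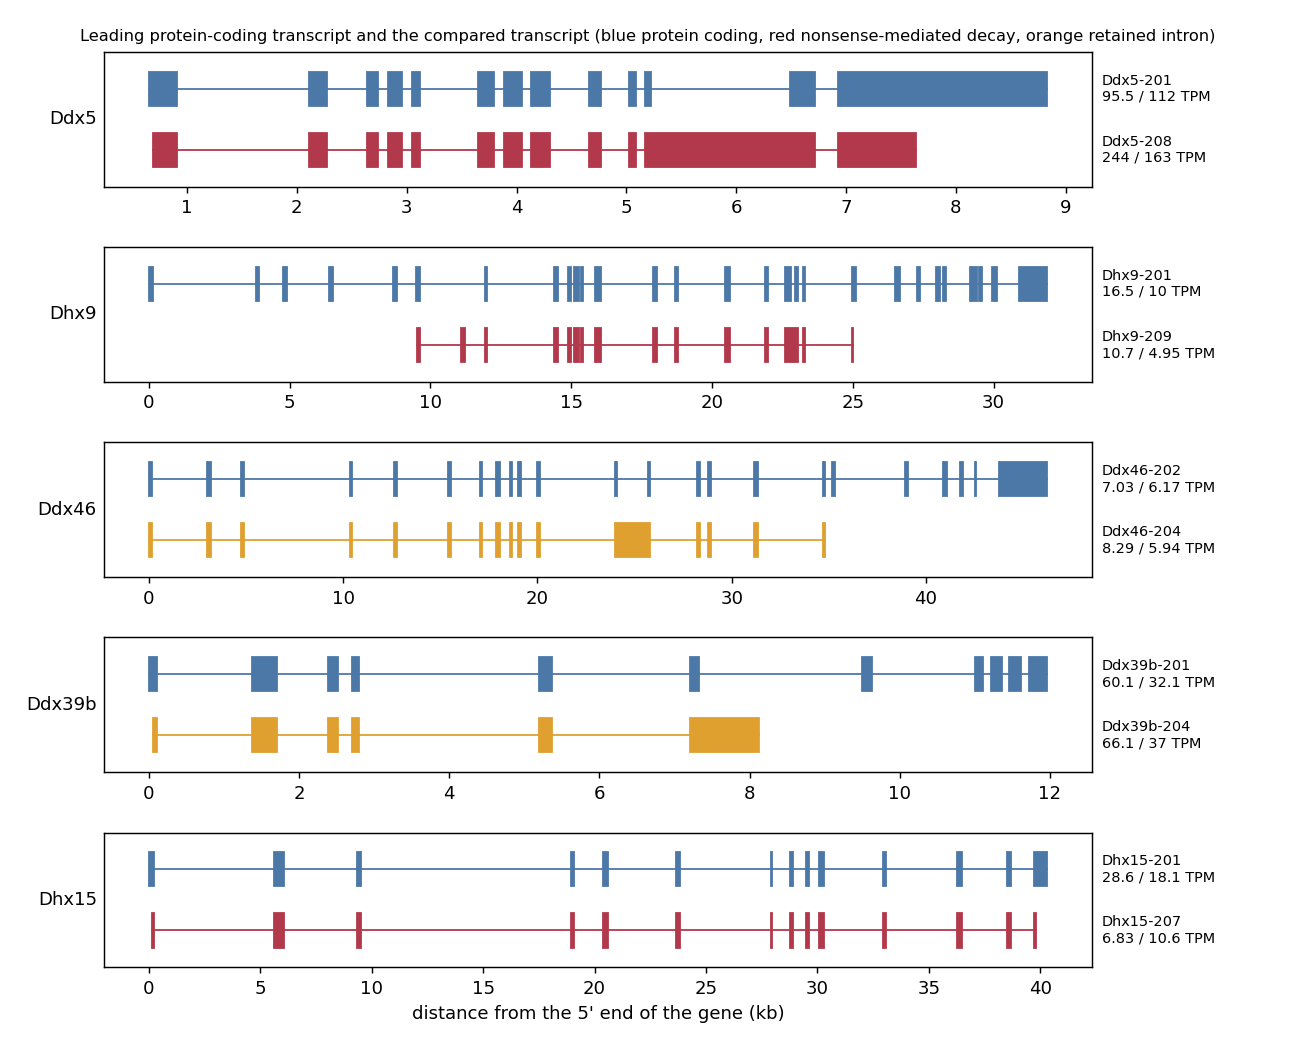
Exons (boxes) of the leading protein-coding transcript and of a compared transcript of 5 members, by distance in kb from the 5′ end of the gene, with TPM in replicate 1 and replicate 2 at the right. Ddx5-208, at 244 and 163 TPM, has 1 long exon where Ddx5-201 has 2 exons and intron 11.

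All 10 spliceosome and small nuclear RNP helicases passed the minimum, and their median TPM was 11.9 in replicate 1 and 8.07 in replicate 2. Dhx15, the counterpart of yeast Prp43 that takes spent spliceosomes apart, led at 75.0 and 49.9 TPM (62.5 ± 17.7, SD, n = 2). Ddx23, the Prp28 counterpart that frees the 5′ splice site from U1, followed at 38.4 and 16.7 TPM. Ddx42, an SF3B-associated helicase, was at 20.6 and 14.2 TPM, and Ddx46, the Prp5 counterpart that helps U2 bind the branch site, at 15.3 and 12.1 TPM. Those acting at the catalytic steps were lower in the gene table, though not all of them in the read-based table. Dhx16, the Prp2 counterpart, was at 12.8 and 10.3 TPM, Dhx38, the Prp16 counterpart, at 11.0 and 5.88 TPM, and Dhx8, the Prp22 counterpart, at 9.58 and 4.83 TPM. Ddx20, the Gemin3 subunit of the SMN complex that assembles small nuclear RNPs, was the lowest of the 10 at 2.42 and 2.44 TPM.

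The 2 tables did not give the same level for 2 of these splicing helicases. Dhx16 was at 59.3 and 55.6 TPM in the read-based table, above its 12.8 and 10.3 TPM in the gene table. Dhx35, found in catalytic spliceosomes, was at 26.9 and 13.7 TPM in the read-based table and 10.8 and 5 TPM in the gene table. In the read-based table Dhx16 was above Dhx15, at 53.4 and 36.6 TPM, and Dhx35 above Ddx46, at 10.7 and 8.14 TPM. For both Dhx16 and Dhx35, the gap between tables was larger than the gap between replicates in the gene table. Each gap lay mainly in 1 short transcript not annotated as coding. The 825-base Dhx16-202, of the retained-intron type, was at 50.2 and 50.8 TPM in the read-based table. In the transcript table it was at 0.65 and 1.02 TPM. The 328-base Dhx35-203, annotated as a processed transcript, was at 14.1 and 8.36 TPM in the read-based table and at 0 in the transcript table. The cause was not tested.

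Dhx15 carried a shift of 8 bases at a splice junction. Dhx15-207, of the NMD type, took 9.11% of the gene's TPM in replicate 1 and 21.3% in replicate 2, from 208 and 488 counts. In the read-based table it took 12.3% and 25.3%, so replicate 2 was the higher in both tables. Dhx15-207 lacks the first 8 bases of an exon of Dhx15-201 (chr5:52157570-52157577, minus strand), a number that is not a multiple of a codon's length. The spliced junctions are shown with those bases in capitals, from GENCODE M21.
Dhx15-201 junction: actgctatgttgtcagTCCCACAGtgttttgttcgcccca
Dhx15-207 junction: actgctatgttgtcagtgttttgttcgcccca

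The bases that Dhx15-207 lacks end in AG, the letters that close an intron. The transcripts also differ in where they begin and end, so the split of reads between them does not rest on the junction alone.

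Ddx46 showed a whole held intron under the retained-intron type. Ddx46-204 holds intron 12 of 22, of 1618 bases (chr13:55659099-55660716, plus strand), and was at 8.29 and 5.94 TPM beside 7.03 and 6.17 TPM for the coding Ddx46-202. Which of them was higher therefore changed between libraries. Its intron ends are shown for comparison with those of Ddx5, intron in capitals (chr13:55659079-55659138 and chr13:55660677-55660736).
Ddx46-204 intron 5′ end: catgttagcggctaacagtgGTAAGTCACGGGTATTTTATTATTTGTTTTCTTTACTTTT
Ddx46-204 intron 3′ end: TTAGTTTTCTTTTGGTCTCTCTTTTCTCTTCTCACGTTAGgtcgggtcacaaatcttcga

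The mRNA export helicases spanned a wide range. Ddx39b (UAP56, a core of the TREX export complex) was at 143 and 76.5 TPM (110 ± 47.3, SD, n = 2), the third highest of all members. Its paralog Ddx39 (URH49) was at 11.2 and 5.85 TPM. Ddx19b and Ddx19a, counterparts of yeast Dbp5 that release mRNA at the nuclear pore, were at 7.51 and 5.26 TPM and at 3.76 and 2.79 TPM. Ddx19a and Ddx19b lie 5387 bases apart on chromosome 8 and are close paralogs whose counts are not whole in the gene table, so reads were split between them and the level of each is uncertain. Ddx39 overlaps Adgre5 on the opposite strand, at 379 and 736 counts. The counts of both genes are fractional and sum to 624 and 906, so reads were divided between them and the level of Ddx39 is uncertain.

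Much of the Ddx39b TPM was in a transcript that stops inside an intron. Ddx39b-204, of the retained-intron type, was at 66.1 and 36.98 TPM, and the 4 protein-coding transcripts together at 75.7 and 38.4 TPM. The highest of these, Ddx39b-201, was at 60.1 and 32.1 TPM, so Ddx39b-204 was above each coding transcript but below their sum in both libraries. Unlike Ddx5-208 it does not hold an intron whole: it runs 801 bases into intron 6, which is 2177 bases long, and ends there (chr17:35249070-35249870, plus strand). The exon to intron boundary it reads through is shown with the intron in capitals (chr17:35249050-35249109).
Ddx39b-204 junction: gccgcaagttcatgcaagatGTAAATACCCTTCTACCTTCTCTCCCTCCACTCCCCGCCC

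**Figure D3:**
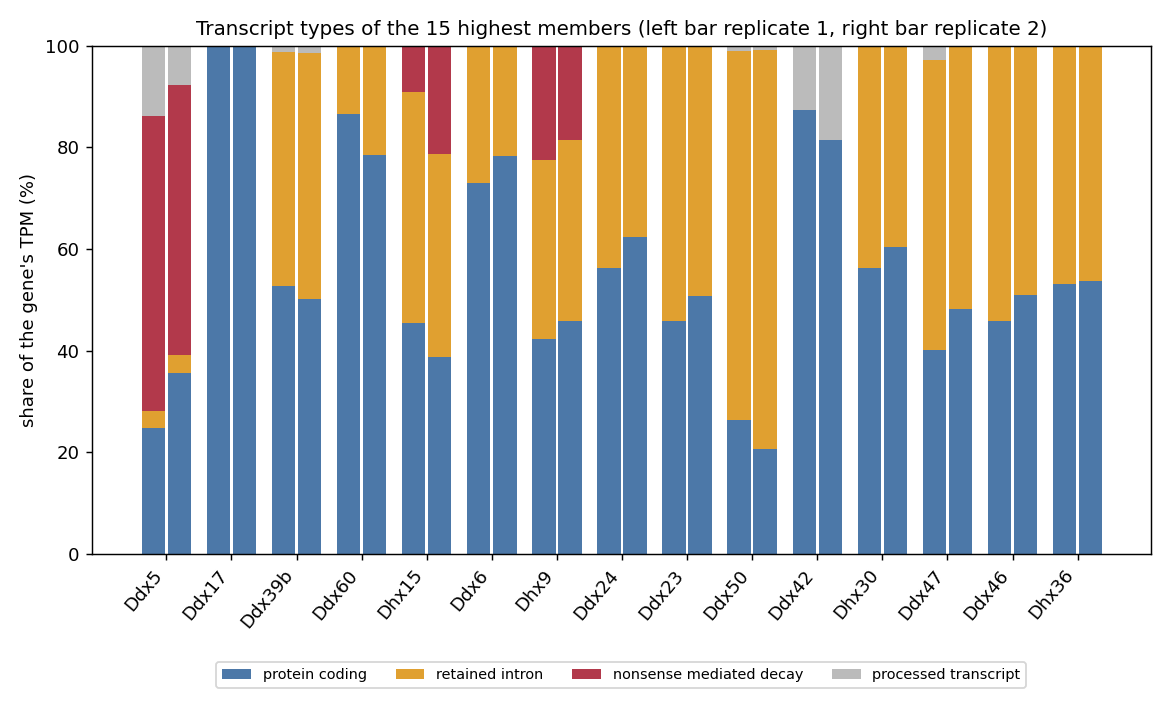
Share of each gene's TPM by annotated transcript type, for the 15 members with the highest mean TPM, with replicate 1 at the left and replicate 2 at the right of each pair. Ddx5 has 58.2% and 53.2% in NMD transcripts, Ddx17 has only protein-coding transcripts, and Ddx50 has 72.7% and 78.4% in retained-intron transcripts.

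The largest role group was ribosome biogenesis, and all 16 of its members were detected, with median TPM values of 7.995 and 5.03. These are mostly nucleolar enzymes that fold or release ribosomal RNA precursors. Ddx24, which acts on the large subunit in yeast as Mak5, led at 43.5 and 22.5 TPM. Ddx50, a nucleolar paralog of Ddx21, followed at 26.01 and 20.5 TPM, and Ddx47, the counterpart of yeast Rrp3 for the small subunit, was at 19.9 and 10.3 TPM. Ddx21, the paralog that also couples transcription to ribosomal RNA processing, was lower than Ddx50 in both libraries, at 8.30 and 5.43 TPM. Ddx50 and Ddx21 lie 13613 bases apart on chromosome 10, on the same strand. Dhx37, counterpart of yeast Dhr1, was the lowest of the 16, at 2.66 and 1.97 TPM.

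RNA of all 5 members with cytoplasmic roles was detected in this nuclear fraction. The roles are those of the proteins, whose location was not measured. Ddx6, which represses and decays mRNA, was at 43.7 and 30.9 TPM. Dhx36, which unwinds G-quadruplexes, was at 14.3 and 9.87 TPM, and Ddx1, of the tRNA ligase complex, at 6.53 and 5.94 TPM. Dhx29, a translation initiation helicase, was the lowest of the 5 at 3.06 and 1.59 TPM. Dhx30 and Ddx28, which act in mitochondrial ribosome assembly, were at 19.1 and 11.4 TPM and at 4.27 and 2.42 TPM, each with an overlapping gene on the opposite strand (Smarcc1 and Dus2).

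Ddx60, an interferon-induced antiviral helicase, was the fourth highest member at 87.8 and 69.8 TPM (78.8 ± 12.7, SD, n = 2), from 3748 and 4913 counts. Without unstimulated cells this level is not an induction. Its TPM and its counts ranked its transcripts differently. The 2120-base Ddx60-205 was at 40.04 and 21.8 TPM with 1073 and 883 counts, while the 6535-base Ddx60-201 was at 23.1 and 23.9 TPM with 2057 and 3201 counts. The longer transcript thus had more counts in both libraries and more TPM in replicate 2 only. In the read-based table Ddx60-205 was the higher in both libraries, at 44.3 and 31.2 TPM against 10.4 and 9.66 TPM for Ddx60-201.

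The remaining groups held few members. Ddx11, a DNA helicase of sister chromatid cohesion, was at 7.77 and 3.66 TPM. Dhx57, of less known function, was at 10.3 and 7.24 TPM, and Ddx59 missed the 1 TPM minimum at 0.99 and 0.78 TPM. None of the 3 germ cell helicases was detected. Ddx4, the vasa counterpart, had 9 and 5 counts, while Ddx25 and Ddx43 were listed with 0 counts in each library, a floor of 3 counts.

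The members' ratios between libraries lay in a narrow range. TPM was lower in replicate 2 for 46 of 49 members and higher for Ddx20 alone, while counts were higher in replicate 2 for 19. Neither count was taken over all protein-coding genes. Lower TPM was not particular to the members, since the median annotated gene at a mean of 1 TPM or more was lower too. Its log2 ratio of TPM + 1, replicate 2 over replicate 1, was -0.58, and ratios below are relative to it. Of the 45 members at a mean of 1 TPM or more, none passed a relative log2 ratio of 1, beside 5.46% of 9556 protein-coding genes, and none passed -1, beside 1.73%. The median of the members was 0.05 and that of protein-coding genes 0.06. The SD over genes was 0.26 for the members and 0.56 for protein-coding genes. With 1 library on each side no test of these differences exists.

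**Figure D4:**
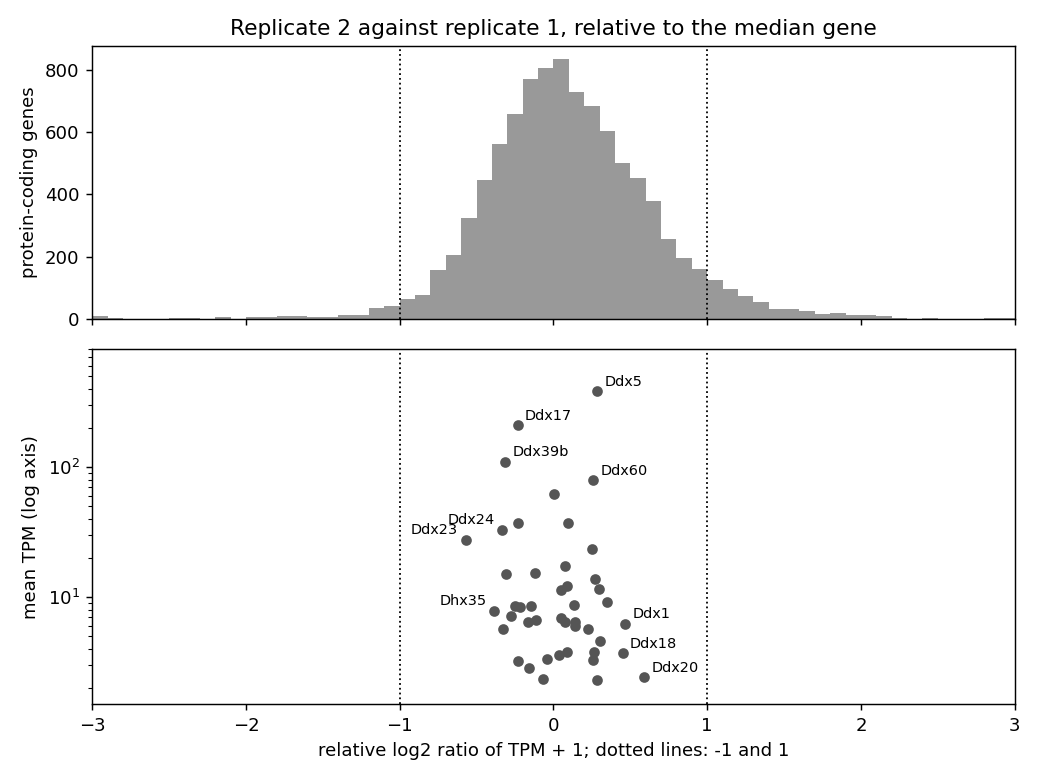
Relative log2 ratio of replicate 2 over replicate 1 (TPM + 1) for 9556 protein-coding genes as a histogram (top; values past 3 in either direction are in the end bins) and for 45 members against mean TPM on a log axis (bottom). Members span -0.57 (Ddx23) to 0.59 (Ddx20), inside the dotted lines at -1 and 1.

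Among members with 100 or more counts in both libraries, the lowest relative log2 ratios were -0.57 for Ddx23, -0.39 for Dhx35, -0.34 for Ddx24, -0.33 for Ddx11 and -0.31 for Ddx39b. The highest were 0.47 for Ddx1, 0.45 for Ddx18, 0.35 for Ddx27, 0.30 for Ddx10 and 0.29 for Dhx16. All 5 of the low group were below 0 under TMM (trimmed mean of M values) and DESeq2 scaling of counts, a smaller pseudocount, no filter on low genes and the read-based table. Of the high group, Dhx16 was at -0.13 with TMM and -0.16 with DESeq2, and Ddx18, a nucleolar ribosome factor, at -0.03 with DESeq2. Of the 16 ribosome biogenesis members 12 were above 0, but 9 with DESeq2 and 4 with no filter, and of the 10 splicing members 5 were, but 4 and 2. Of 9556 protein-coding genes 55.7% were above 0, and 56.8% and 33.3% under those settings. Ddx20 had the highest ratio in the gene table's TPM, 0.59, from 86 and 132 counts. With TMM and DESeq2 Ddx19a was higher than Ddx20, and in the read-based table Dhx16 was at 0.53 and Ddx20 at 0.46.

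Retained-intron shares were taken gene by gene. Over 23 members reaching 5 TPM in each library and having such a transcript, the median share of the gene's TPM was 41.9% in replicate 1 and 37.6% in replicate 2. The same median over 3788 protein-coding genes was 39.3% and 33.0%. As a share of counts, which weighs long transcripts more, the members' median was 27.4% and 23.2%. The share exceeded 50% in both libraries for 3 of the 23, beside 21.9% of protein-coding genes, so the members were not above the background by that count. These were Ddx49, the counterpart of yeast Dbp8, at 88.3% and 84.6%, Ddx50 at 72.7% and 78.4%, and Ddx47 at 57.2% and 51.9%. All 3 are ribosome biogenesis helicases, a role that 7 of the 23 have. The shares of those 7 ran from 12.0% to 88.3% in replicate 1 and from 29.9% to 84.6% in replicate 2. Ddx49, Ddx50 and Ddx47 were above 50% in the read-based table as well. So were Dhx16, a splicing helicase, at 88.9% and 94.1%, and Dhx30, of mitochondrial ribosome assembly, at 60.2% and 65.7%. By read-based TPM the members above 50% in both libraries were thus 5 of the 23, beside 27.3% of the 3788 genes. They were not all of ribosome biogenesis. As a share of counts Ddx47 was at 49.4% and 40.01% and did not pass. Ddx49 overlaps Homer3 on the opposite strand, at 439 and 351 counts; the fractional counts of the pair sum to 668 and 538, so reads were divided between them and the share of Ddx49 is uncertain. The next were Ddx23 at 54.2% and 49.2% and Ddx46 at 54.1% and 49.1%, just under the threshold in replicate 2. Ddx11, a DNA helicase, was at 74.6% and 74.3%, and Ddx54, of ribosome biogenesis, at 64.9% and 59.6%. Both were under 5 TPM in replicate 2 and so not among the 23.

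**Figure D5:**
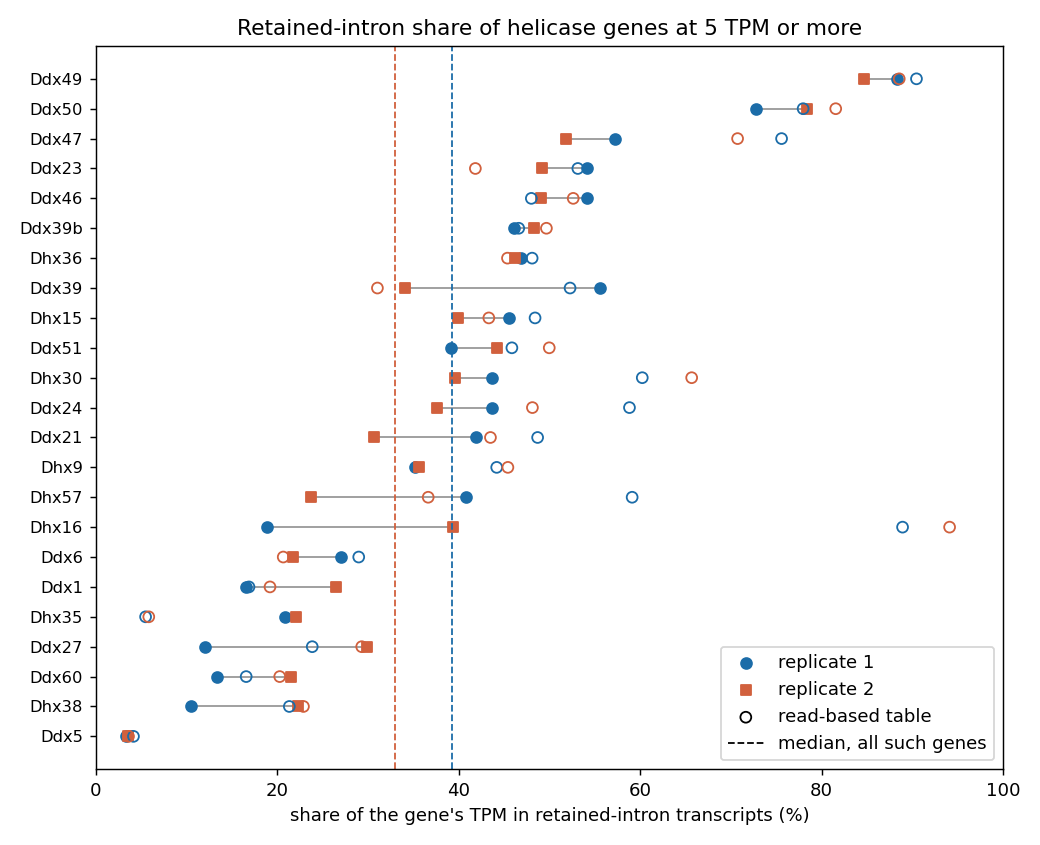
Share (%) of each gene's TPM in retained-intron transcripts for 23 members reaching 5 TPM in each library; filled symbols are the transcript table, open circles the read-based table, and dashed lines the medians over 3788 protein-coding genes. Shares run from 3.32% and 3.61% for Ddx5 to 88.3% and 84.6% for Ddx49, and Dhx16 differs most between the tables.

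The lowest shares were those of Ddx5 at 3.32% and 3.61%, Dhx38 at 10.5% and 22.3%, Ddx60 at 13.3% and 21.5%, Ddx27 at 12.0% and 29.9%, and Dhx35 at 20.9% and 22.04%. The share moved by more than 10 percentage points between libraries for 6 of the 23, and it was lower in replicate 2 for 12. These counts were not taken over the 3788 protein-coding genes, whose median share was 39.3% and 33.0%. They therefore cannot show whether the members differ from those genes. Dhx16 went from 18.8% to 39.4% in the transcript table, and was at 88.9% and 94.1% in the read-based table. Ddx39 went the other way, from 55.6% to 34.1%.

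The annotated type hid Ddx5's held intron. NMD transcripts exceeded 50% of TPM in both libraries for 1 of 7 members with such a transcript, Ddx5 at 58.2% and 53.2%, beside 1.42% of 1825 protein-coding genes. In the read-based table Ddx5 was at 48.3% and 57.97%, so it did not pass in replicate 1 there. A share was therefore also taken over transcripts of any type with an exon that contains a whole intron of the gene's leading protein-coding transcript, a measure chosen after Ddx5's values were seen. By it 1 of 13 members was above 50% of TPM in both libraries, Ddx5 at 61.5% and 51.3%, beside 6.85% of 1971 protein-coding genes. In the read-based table Ddx5 was at 44.4% and 38.04%, and none of the 13 passed, beside 6.44% of the 1971 genes. As a share of counts Ddx5 passed at 69.9% and 57.8%, and so did Ddx47 at 67.9% and 63.5%. By counts 2 of the 13 thus passed, beside 12.6% of the 1971 genes. In TPM, Ddx46 was at 54.1% and 49.1%, Ddx47 at 46.1% and 51.7%, and Dhx9 at 48.4% and 44.3%. Ddx39b-204 and other transcripts that end within an intron do not count under it. The leading transcript is the coding one with the highest mean TPM, which can be short. For Dhx30 it was Dhx30-218, of 368 bases and 2 exons, so 1 intron could be held there, and Dhx30 was not among the 13.

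Annotated held introns of the members were short. The transcripts of 19 members hold 48 distinct introns, all between coding exons, with a median of 328.5 bases and a range of 77 to 2705 bases. The 760 introns of the members' leading protein-coding transcripts had a median of 878.5 bases. Of the held introns 81.25% were under 1000 bases, against 52.9% of the 760. This describes the annotation and not the reads.

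Summed over all members, protein-coding transcripts took 55.9% of TPM in replicate 1 and 56.7% in replicate 2, retained-intron transcripts 21.03% and 19.4%, and NMD transcripts 18.0% and 20.2%. Ddx5 set the last of these. Without Ddx5 the NMD share was 2.31% and 3.19%, and the retained-intron share 27.9% and 27.6%. Detected protein-coding genes as a whole had 3.95% and 3.61% in NMD transcripts and 32.1% and 25.5% in retained-intron transcripts.

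RNA of helicases of the same superfamily with other names was present too. Of 10 matched, 8 were detected, beside 40.4% of 22015 protein-coding genes, with a median over the 10 of 18.2 and 13.0 TPM. Eif4a1, the translation initiation helicase, was at 130 and 81.1 TPM, Ascc3, of the activating signal cointegrator complex, at 135 and 76.7 TPM, and Eif4a2, the paralog of Eif4a1, at 124 and 84.9 TPM. Only Ddx5 and Ddx17 among the members exceeded all 3 of these in both libraries.

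Genes of partner proteins of the members were mostly detected as RNA, beside 40.4% of 22015 protein-coding genes. All 7 mRNA decay partners of Ddx6 were, led by Cnot1, the scaffold of the CCR4-NOT deadenylase, at 66.6 and 42.1 TPM. All 8 exon junction and export partners were, led by Thoc2, a THO subunit that works with Ddx39b, at 67.3 and 45.6 TPM. Of 8 genes of G-patch proteins, several of which activate Dhx15, 7 were detected, led by Cmtr1, the cap methyltransferase, at 130 and 75.5 TPM. All 5 tRNA ligase partners of Ddx1 were detected, led by Rtraf, a subunit of that complex, at 21.2 and 10.7 TPM. Of 7 SMN complex partners of Ddx20, 3 were detected, near the share over all protein-coding genes, the highest being Smn1 at 6.59 and 5.41 TPM.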

How the data were processed

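Per the accompanying notes, the authors made from each library's transcriptome alignment one table of genes and another of transcripts, and from its reads a further transcript table (here the read-based table), with mm10 and annotation M21. The sources used here do not name the aligner, quantifier, versions or use of strand. The deposited expected counts are estimated counts that need not be whole, the deposited TPM values are scaled by effective length to 1 total, and the deposited FPKM values are scaled by length and depth, per the file headers.

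TPM thus moves with the other RNA of a library. Ratios are log2((TPM + 1) in replicate 2 over replicate 1) minus the median of annotated genes with a mean TPM of at least 1. The pseudocount of 1 understates ratios of low genes. Type shares use the transcript table's TPM and GENCODE types, for genes reaching 5 TPM in each library. Counts were whole (within 0.005) in both libraries for 40 members and split among genes for 9. Wilson intervals and the floor of 3 counts cover counting error only, since no molecular identifiers mark independent molecules.

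Alternatives used TMM factors (edgeR 4.0.16) and DESeq2 1.42.0 size factors in R 4.3.3, on expected counts rounded to whole numbers. Python 3.11.15 with statsmodels 0.14.6, matplotlib 3.10.9, numpy 2.4.6 and pandas 2.3.3 served for the rest; the ratio step was tested on simulated data. Members and lists were chosen with earlier results of these data known. Values are given for the 15 highest members, the highest and lowest of each role, the 5 largest ratios in each direction among members with 100 or more counts in both, the 5 highest and 5 lowest retained-intron shares, and the 3 highest genes over the lists of other helicases; partner lists are given by their highest gene, and other members where a role or an alternative table is described.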

Additional observations from a re-analysis of the deposited data

Results flagged for a closer look

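Genes annotated inside 3 members, on the same strand and of the provisional annotation class TEC, had 50 or more counts in both libraries and entered no comparison. E030022I16Rik inside Ddx6 had 872 counts in replicate 1 and 658 in replicate 2, and Gm47234, also inside Ddx6, had 123 and 106. Gm47260 inside Ddx24 had 892 and 753 counts, which is 58.6% and 58.8% of the counts of Ddx24 itself. Gm43178 inside Dhx15 had 73 and 61 counts.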

How the results depend on the processing

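Of 25 alternative values, 18 stayed within a set spread or within 1.5 times the count. The spread was that between replicates, except for the relative log2 ratio, where it was the SD over the members, 0.26. The no-filter median of -0.20 stayed within that SD of the main value, 0.05, though its sign changed. The count of detected members was 45 in the main and read-based tables, 46 at 10 or more counts, and 27 at 5 TPM. The median TPM ran from 5.26 without replicate 1 to 8.46 without replicate 2. No member passed a relative log2 ratio of 1 in either direction under TMM, DESeq2, a pseudocount of 0.1, no filter on low values, or the read-based table, and the median relative log2 ratio was between -0.20 (no filter, which centres on a lower set of genes) and 0.10 (pseudocount of 0.1). Above 0 were 26 of 45 members in the values reported, 23 with DESeq2, 28 in the read-based table and 8 with no filter; of protein-coding genes 55.7%, 56.8%, 54.5% and 33.3% were. The median retained-intron share over both libraries, 40.6%, was 46.7% in the read-based table, 24.2% as a share of counts, 36.3% with genes from 1 TPM, 25.9% over transcripts that hold a whole intron (added after the data were seen), and 37.6% to 41.9% with 1 replicate left out; the cause was not tested, beyond the changed set of transcripts, genes or units. The members' share of counts, 0.386%, was 0.553% of protein-coding counts, a smaller denominator. No paired analysis was possible because the libraries form 1 group. Depth limits the lowest members: Ddx4, Ddx25 and Ddx43 had under 10 counts in each library.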
